A study of Bos taurus with 9 samples.

Results

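Before weaning, 3831 H3K27ac peaks in the calf rumen also carried an H3K9ac peak, lay free of RNA polymerase II (RNA pol II), and had no overlapping H3K27ac peak after weaning. They were chosen from the 74249 H3K27ac peaks listed before weaning by 3 conditions, namely at least 1 bp shared with an H3K9ac peak before weaning, no bp shared with an RNA pol II peak before weaning, and no bp shared with an H3K27ac peak after weaning. They are called lost regions here, where lost means only that no peak was listed after weaning at the same place. They made up 5.16% of the H3K27ac peaks before weaning, and the 8 peak lists together held 130580 peaks.

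The data were ChIP-seq peaks (chromatin immunoprecipitation followed by sequencing) from the epithelial tissue of the rumen, taken before and after weaning from calves of the Holstein dairy breed, with no genotype or other treatment named in the labels. Each of the 4 targets (H3K27ac, H3K9ac, RNA pol II and H3K9me3) had 1 library at each of the 2 time points, and all were set against 1 input library of chromatin that was not immunoprecipitated. The antibody lot was the same before and after weaning for each target. The number and age of the calves behind each library were not given in the sources used here, and tissue samples of this kind hold several cell types, so fewer cells of a type and less mark per cell cannot be told apart. With 1 library per target and time point there was no replicate, no test of weaning was possible, and the 95% intervals given for shares (Wilson) and for differences between shares (Newcombe) cover counting error only. Neighbouring peaks are not independent, so these intervals may be too narrow.

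Acetylation of histone H3 at lysine 27 and lysine 9 loosens the contact between histones and DNA, and both marks are found at active promoters and enhancers. RNA pol II is the enzyme that transcribes protein-coding genes and collects at active promoters, whereas H3K9me3 marks silenced chromatin. The rumen is the large fermenting forestomach of cattle, and at weaning its epithelium starts to absorb short-chain fatty acids from the fermentation of solid feed, among them butyrate, which inhibits histone deacetylases.

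Of the 74249 H3K27ac peaks before weaning, 11380 touched an H3K9ac peak (15.3%), and 10324 of these did not touch RNA pol II. The 3831 lost regions were 37.1% of those 10324 (interval 36.2% to 38.0%), against 72.1% lost among all H3K27ac peaks. With a reciprocal overlap of 50% as the condition for touching, the share was 60.0% and the number 2329, and 3 other settings gave between 2166 and 2439 regions. With lists extended by 1 kb the number was higher, at 5387, and the share was 30.2%. Among peaks with H3K27ac alone, that is with neither H3K9ac nor RNA pol II, 49437 of 62386 were lost (79.2%). Among the 1056 peaks with both acetyl marks and RNA pol II, 69 were lost (6.53%, interval 5.20% to 8.19%). These shares come from the lists that defined the regions and are given as a description. The groups also differed in width, which moved with the lost share (given with the widths). The H3K27ac list after weaning was also smaller as a whole, with 30446 peaks covering 10.7 Mb against 34.9 Mb before weaning.

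A few regions lay close to the limits of the rule. The smallest gap between a lost region and an H3K27ac peak after weaning was 6 bp, and 22 lost regions had a gap under 50 bp, while 17 of the 6493 kept regions (both acetyl marks, no RNA pol II, H3K27ac listed again after weaning) overlapped their later peak by under 50 bp. The H3K9ac overlap was as low as 1 bp and lay under 50 bp in 79 lost regions, and 70 lost peaks with H3K27ac alone missed an H3K9ac peak by under 50 bp. Only 2 lost regions lay within 50 bp of an RNA pol II peak before weaning, the nearer at 28 bp. A larger set, 2780 lost regions (72.6%), was more than 1 kb from every H3K27ac peak after weaning and every RNA pol II peak before weaning.

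The lost regions were narrow for peaks with both marks. Their median width was 501 bp (quartiles 327 and 731 bp, range 200 to 2884 bp), and together they covered 2.24 Mb. With peaks within 1 kb merged first, the median was 1106 bp. Kept regions had a median of 851 bp (quartiles 601 and 1226 bp), and lost peaks with H3K27ac alone had a median of 291 bp (quartiles 232 and 412 bp). Of the lost regions 398 (10.4%) were wider than 1 kb, against 38.5% of kept regions, and 70 (1.83%) had the lowest width in the list, 200 bp. When the 10324 regions were split by width into 5 classes of nearly equal number, the lost share went from 71.1% in the narrowest class (200 to 416 bp) through 46.5%, 33.4% and 22.6% to 11.8% in the widest (1163 to 5758 bp). Peaks with H3K27ac alone in the same classes were lost at 86.5%, 71.8%, 58.8%, 46.3% and 31.3%, above the regions with both marks in each class. A wide peak has more bp at which a later peak can touch it, and the part of this in the trend was not tested.

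**Figure D1:**
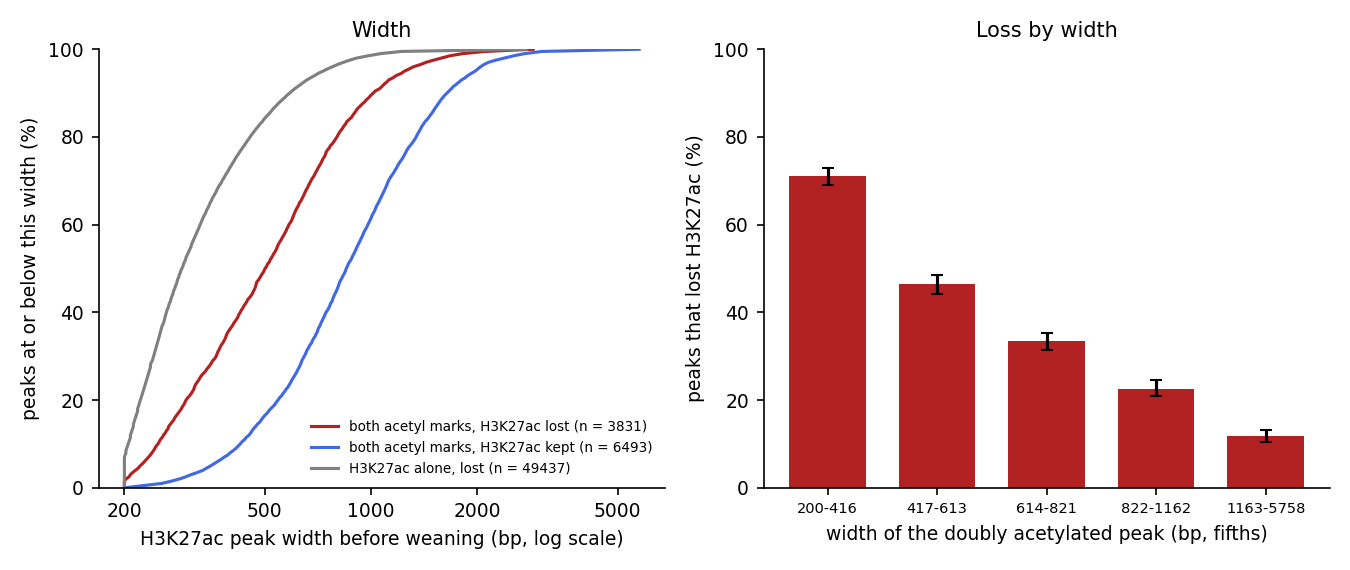
Left, the cumulative share of H3K27ac peaks before weaning (%) against peak width (bp, log scale) for the 3831 lost regions (red), the 6493 kept regions (blue) and the 49437 lost peaks with H3K27ac alone (grey). Right, the share of peaks with both acetyl marks and no RNA pol II that lost H3K27ac (bars, 95% Wilson intervals) in 5 width classes, which falls from 71.1% to 11.8%.

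The widest lost regions were spread over several chromosomes (all positions on UMD3.1.1). The widest lay at chr23:48079871-48082754 (2884 bp) with 1 H3K9ac peak of 361 bp, and its nearest H3K27ac peak after weaning was 8.98 kb away. The next, at chr2:52270262-52272759 (2498 bp), carried an H3K9ac peak of 244 bp and lay 9.45 kb from the nearest later peak. The third, at chr16:37566362-37568834 (2473 bp), lay only 575 bp from a later peak of 419 bp. The fourth, at chr22:10647361-10649810 (2450 bp), lay 32.1 kb from one, and the fifth, at chr17:60235211-60237609 (2399 bp), lay 158.0 kb from one and carried the widest H3K9ac peak of these regions, 847 bp. None of these regions touched H3K9ac after weaning, RNA pol II after weaning or H3K9me3 at either time. The 398 lost regions wider than 1 kb had a median distance of 7.63 kb to the nearest H3K27ac peak after weaning, against 6.78 kb for the narrower ones.

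The H3K9ac peak on a lost region was usually single, narrow and inside it. Of the 3831 lost regions 3702 (96.6%) carried 1 H3K9ac peak, 124 carried 2 and 5 carried 3, while 14.7% of kept regions carried 2 or more. This number moved with width, since 17.6% of lost regions over 1 kb wide carried 2 or more against 1.72% of the narrower ones. The 3920 distinct H3K9ac peaks had a median width of 246 bp (quartiles 212 and 305 bp), against 289 bp on kept regions. They covered a median of 48.9% of the lost region, and in 67.3% of lost regions they lay wholly inside it (88.6% of kept regions). The median distance between the centres of the region and of its closest H3K9ac peak was 86 bp (119 bp on the wider kept regions). Of the 3920 H3K9ac peaks, 72 (1.84%) touched a further H3K27ac peak before weaning, and 27 (0.689%) touched one that was kept. An H3K27ac peak after weaning was touched by 30 (0.765%), against 56.7% of the whole H3K9ac list before weaning, a share that the choice of regions without later H3K27ac largely fixes.

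The first 3 in genome order of the 5 regions with 3 H3K9ac peaks show a more complex shape. At chr10:26118024-26120421 (2398 bp) there were 3 H3K9ac peaks that shared 1027 bp with the region, and the nearest later H3K27ac peak was 3.03 kb away. At chr14:16357758-16359673 (1916 bp) 3 H3K9ac peaks shared 940 bp, and at chr11:6796154-6797058 (905 bp) 3 shared 580 bp, with later H3K27ac peaks 1.37 kb and 312 bp away.

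**Figure D2:**
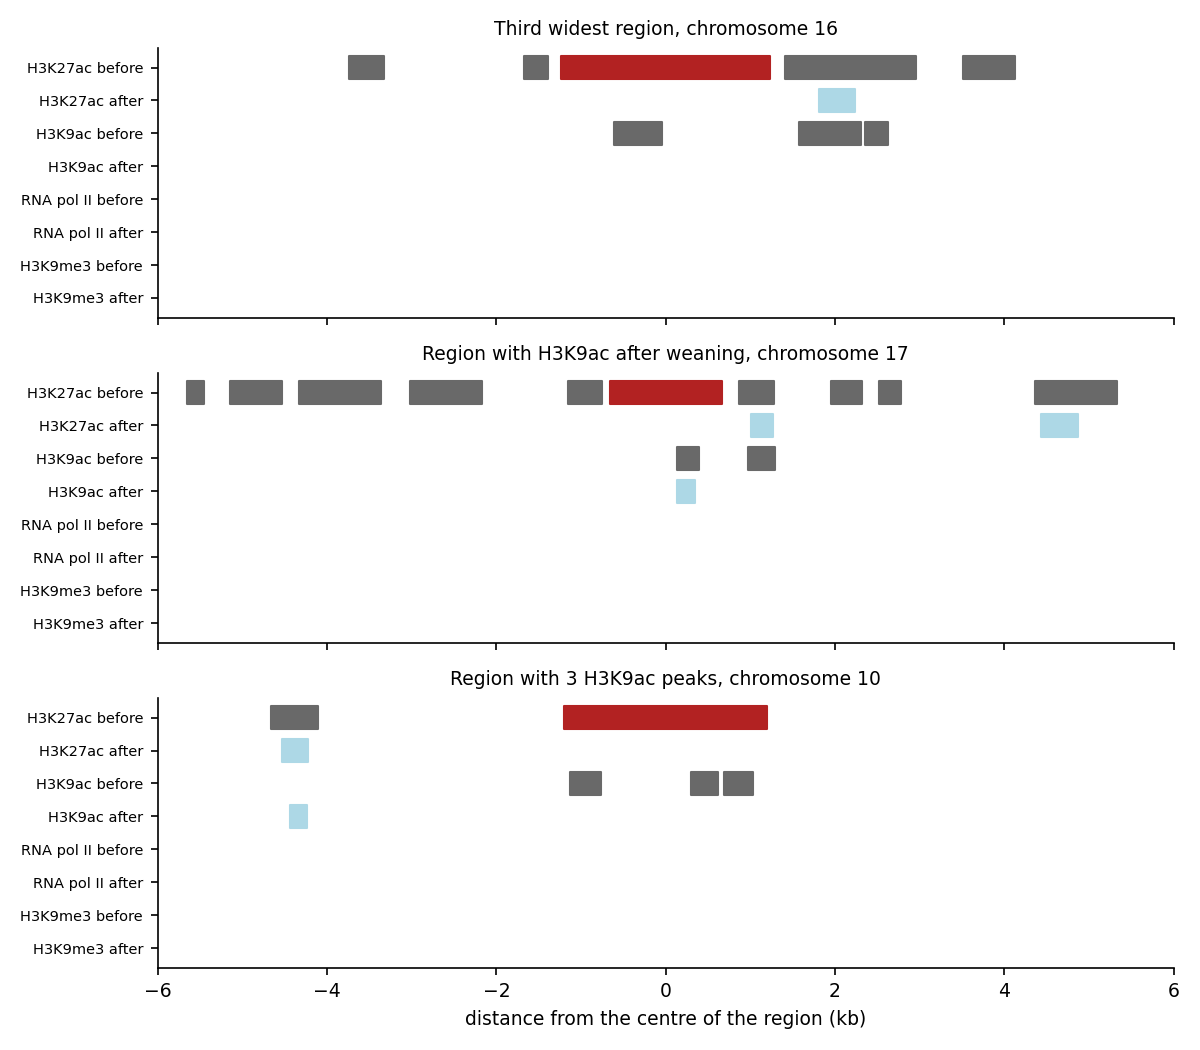
Peaks of the 8 lists (rows) within 6 kb of the centre of 3 lost regions, with the lost region in red, other peaks before weaning in dark grey and peaks after weaning in light blue. The x axis is the distance from the centre of the region (kb). The region on chromosome 16 has a later H3K27ac peak on the next peak 575 bp away, the region on chromosome 17 still has H3K9ac inside it, and the region on chromosome 10 lost all 3 of its H3K9ac peaks.

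Nearly all lost regions also had no H3K9ac peak after weaning, in a list that was not used to choose them but is tied to one that was. Of its peaks 69.3% touched an H3K27ac peak after weaning, which lost regions lack and kept regions have by rule. How much of the differences from kept regions follows from this was not tested. After weaning 55 of the 3831 lost regions (1.44%, interval 1.10% to 1.86%) touched an H3K9ac peak, against 687 of 6493 kept regions (10.6%, interval 9.86% to 11.4%), a difference of -9.14 percentage points (interval -9.98 to -8.30). Of all H3K27ac peaks before weaning, 2.01% touched H3K9ac after weaning. Lost peaks with H3K27ac alone touched it in 0.350% of cases, which was 1.09 percentage points below the lost regions (interval 0.750 to 1.52). Kept peaks with H3K27ac alone touched it in 3.04% of cases, so a higher share on kept than on lost peaks was found with and without H3K9ac before weaning. The H3K9ac list after weaning was short (2127 peaks against 14384 before), and 93.4% of all H3K9ac peaks before weaning had no H3K9ac peak after weaning. Of the 3920 H3K9ac peaks on lost regions 98.6% had none, leaving 54 (1.38%, interval 1.06% to 1.79%), while 645 of the 7568 on kept regions (8.52%, interval 7.91% to 9.17%) touched one.

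The difference from kept regions was present in each of 4 width classes. In the narrowest (200 to 326 bp) H3K9ac after weaning was found on 1.05% of lost and 2.88% of kept regions, where the intervals of the shares overlap but that of the difference runs from -4.82 to -0.117 percentage points. In the next classes the shares were 1.15% against 6.63% and 1.67% against 7.46%, and in the widest (731 bp and more) 1.88% against 13.0%. When kept regions were weighted to the widths of the lost regions, 7.49% touched H3K9ac after weaning and the difference was -6.06 percentage points (interval -6.94 to -5.17). Weighting by the width of the H3K9ac peak in place of the H3K27ac peak gave 8.71% and -7.28 percentage points (interval -8.08 to -6.48).

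**Figure D3:**
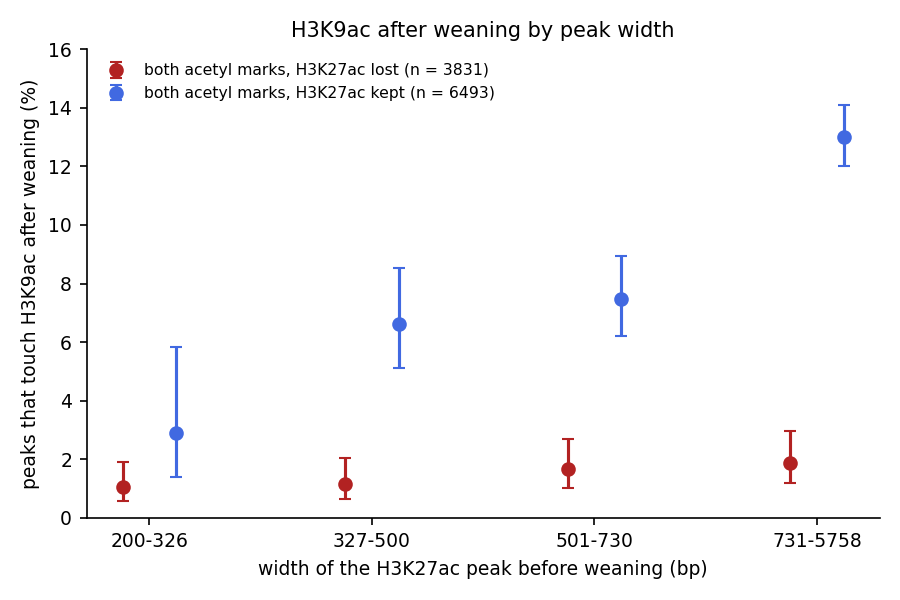
The share of regions that touch an H3K9ac peak after weaning (%, points, with 95% Wilson intervals) in 4 classes of H3K27ac peak width before weaning (bp), for lost (red) and kept (blue) regions. Lost regions stay between 1.05% and 1.88%, and kept regions range from 2.88% to 13.0%.

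In 51 of the 55 lost regions that touched H3K9ac after weaning the later H3K9ac peak overlapped the earlier one, and in 41 it lay wholly inside the region. Only 2 of the 55 later H3K9ac peaks touched an H3K27ac peak after weaning, whereas 69.3% of the whole H3K9ac list after weaning did, a contrast that follows in part from the rule. These regions had a median width of 598 bp against 500 bp for the other 3776 and lay on 24 chromosomes. Their median distance to remaining H3K27ac was 2.07 kb (quartiles 0.485 and 22.8 kb) against 6.95 kb for the others, a wide spread over few regions. The widest was chr1:143753962-143755438 (1477 bp), where a later H3K9ac peak of 217 bp lay inside and the nearest later H3K27ac peak was 4.51 kb away. At chr7:4864600-4866016 (1417 bp) the later H3K9ac peak (238 bp) lay at chr7:4864741-4864978, apart from the 1 earlier peak, at chr7:4865849-4866145. At chr17:64837710-64839031 (1322 bp) a later H3K9ac peak of 213 bp lay within the earlier one of 268 bp, and H3K27ac remained 349 bp away.

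RNA pol II after weaning and H3K9me3 hardly touched these regions. None of the 3831 lost regions touched RNA pol II after weaning, a count of 0 that allows a share of up to 0.0783% if 3 counts are taken as the limit (0.100% as the Wilson upper bound), against 0.0768% of all H3K27ac peaks and 3 of 6493 kept regions (0.0462%), so a difference was not detectable at this number of peaks (738 in the list). Of the 57 H3K27ac peaks behind the 0.0768%, 43 were among the 1056 with both acetyl marks and RNA pol II. The rule leaves these 1056 out. H3K9me3 before weaning touched 3 lost regions (0.0783%, interval 0.0266% to 0.230%) against 0.0741% of all H3K27ac peaks, and H3K9me3 after weaning touched 3 others against 0.106%. Of the 55 and 79 H3K27ac peaks behind the 0.0741% and 0.106%, 31 and 33 were likewise among those 1056. Kept regions had 3 at each time (0.0462%), and the interval of the difference ran from -0.0713 to 0.187 percentage points. Lost peaks with H3K27ac alone touched H3K9me3 before weaning in 0.0223% of cases, 0.0561 percentage points below the lost regions (interval 0.00147 to 0.208, resting on 3 lost regions), and after weaning in 0.0647%, with an interval of the difference from -0.0446 to 0.166. Gain of H3K9me3 at the place of lost acetylation was thus listed at 3 of 3831 regions.

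The regions with H3K9me3 can be named. Before weaning it was found at chr14:72581028-72581670 (643 bp), at chr5:51332601-51333198 (598 bp) and at chr4:106877795-106878174 (380 bp). The regions on chromosomes 14 and 5 also touched H3K9ac after weaning, with later peaks of 893 and 432 bp, so several lists with opposite textbook roles coincided there. After weaning H3K9me3 was found at chr6:90346297-90346849 (553 bp), chr13:11218174-11218418 (245 bp) and chr12:19673118-19673317 (200 bp). The last was a region of the lowest width that shared 29 bp with its H3K9ac peak and lay 48 bp from a later H3K27ac peak.

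The median distance from a lost region to the nearest H3K27ac peak after weaning was 6.88 kb (quartiles 0.895 and 31.9 kb), counted as the bp between the facing ends. This value depended on how peaks were matched, and was 1651 bp with a reciprocal overlap of 50% and 19645 bp with peaks within 1 kb merged. Of the lost regions 1022 (26.7%, interval 25.3% to 28.1%) lay within 1 kb of such a peak, 2134 (55.7%) within 10 kb, 3490 (91.1%) within 100 kb and 3823 within 1 Mb. Lost peaks with H3K27ac alone were farther away, with a median of 10.3 kb. Within 1 kb the lost regions exceeded them by 5.63 percentage points (interval 4.21 to 7.10), within 10 kb by 6.16 (interval 4.53 to 7.79), and within 100 bp the interval ran from -0.423 to 0.367. The nearest later peak lay at lower coordinates in 50.8% of cases (interval 49.2% to 52.4%).

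**Figure D4:**
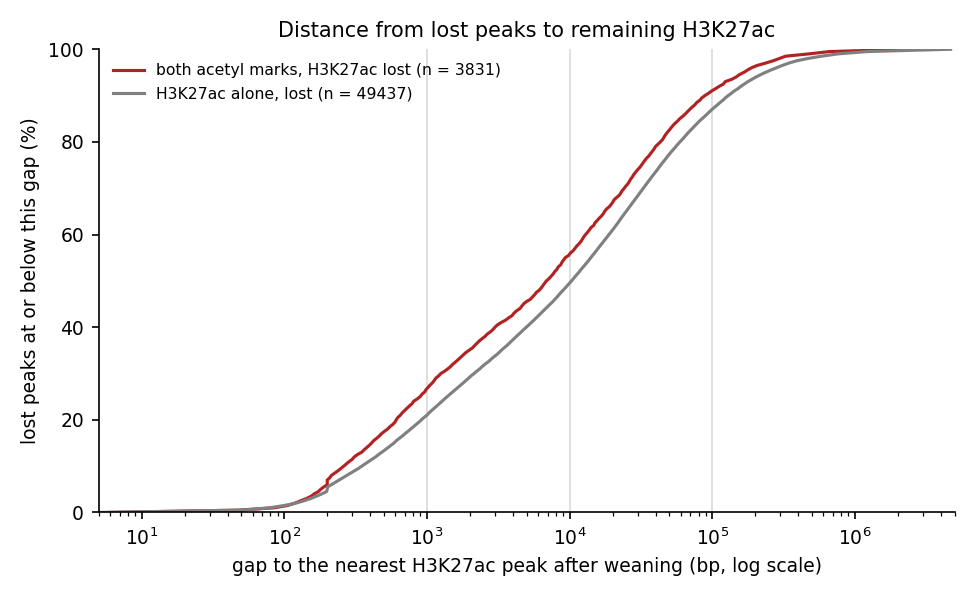
The cumulative share of lost peaks (%) against the gap to the nearest H3K27ac peak after weaning (bp, log scale) for the 3831 lost regions (red) and the 49437 lost peaks with H3K27ac alone (grey), with grey lines at 1, 10 and 100 kb. The red curve lies above the grey one from 200 bp on, at 26.7% against 21.0% at 1 kb, and both have a step at a gap of 200 bp.

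A gap of exactly 200 bp was the most common one, found for 44 lost regions, while no other gap was found for more than 6. The same gap separated 2842 of the 74249 H3K27ac peaks before weaning from their nearest neighbour (3.83%), against at most 263 at any other gap, so the excess was not limited to lost regions.

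Near and far lost regions had similar median widths. Median widths were 493 bp for the 1022 regions within 1 kb of remaining H3K27ac, 511.5 bp for the 1112 at 1 to 10 kb, 501 bp for the 1356 at 10 to 100 kb and 492 bp for the 341 farther away. Their shares with H3K9ac after weaning were 1.86%, 1.35%, 1.18% and 1.47%, with overlapping intervals. What changed with distance was the nearest later peak, which lay on an earlier H3K27ac peak for 93.7% of the regions within 1 kb and for 77.7% of those beyond 100 kb (86.4% of all lost regions, and 76.9% of the whole later list). Of the 1022 regions within 1 kb, the earlier peak beneath was one with both acetyl marks and no RNA pol II for 401 (39.2%), one with both marks and RNA pol II for 70 (6.85%) and one with H3K27ac alone or with RNA pol II but no H3K9ac for 487 (47.7%). For the other 64 (6.26%) there was no earlier H3K27ac peak beneath it.

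The extremes of distance give the range. The nearest case was chr5:112722730-112723531 (802 bp), 6 bp from a later H3K27ac peak of 238 bp, and regions at chr23:17220707-17220925 and chr29:46872909-46873369 each lay 9 bp from one. The farthest were chrX:68675288-68675646 (359 bp) at 2.22 Mb, chr27:10375568-10375892 (325 bp) at 2.19 Mb and chrX:15685530-15686160 (631 bp) at 1.55 Mb.

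Coverage around the centres gave an order of the groups that changed with the offset. At 500 bp on either side of the centre, H3K27ac after weaning covered 3.78% of lost regions, 19.9% of kept regions and 4.20% of lost peaks with H3K27ac alone. At 1 kb it covered 5.98%, 11.4% and 4.27%, and at 10 kb 1.62%, 2.19% and 1.58%. The order near the centre follows in part from the rule, which bars later H3K27ac inside lost peaks and requires it on kept ones. Of lost regions 10.4% were wider than 1 kb, against 1.37% of lost peaks with H3K27ac alone, so the offset of 500 bp lay inside more of them. H3K27ac before weaning at 500 bp from the centre covered 29.8% of lost and 51.5% of kept regions. H3K9ac before weaning covered the centre of 66.2% of lost and 60.5% of kept regions. H3K9ac after weaning covered the centre in 0.861% and 4.99%.

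**Figure D5:**
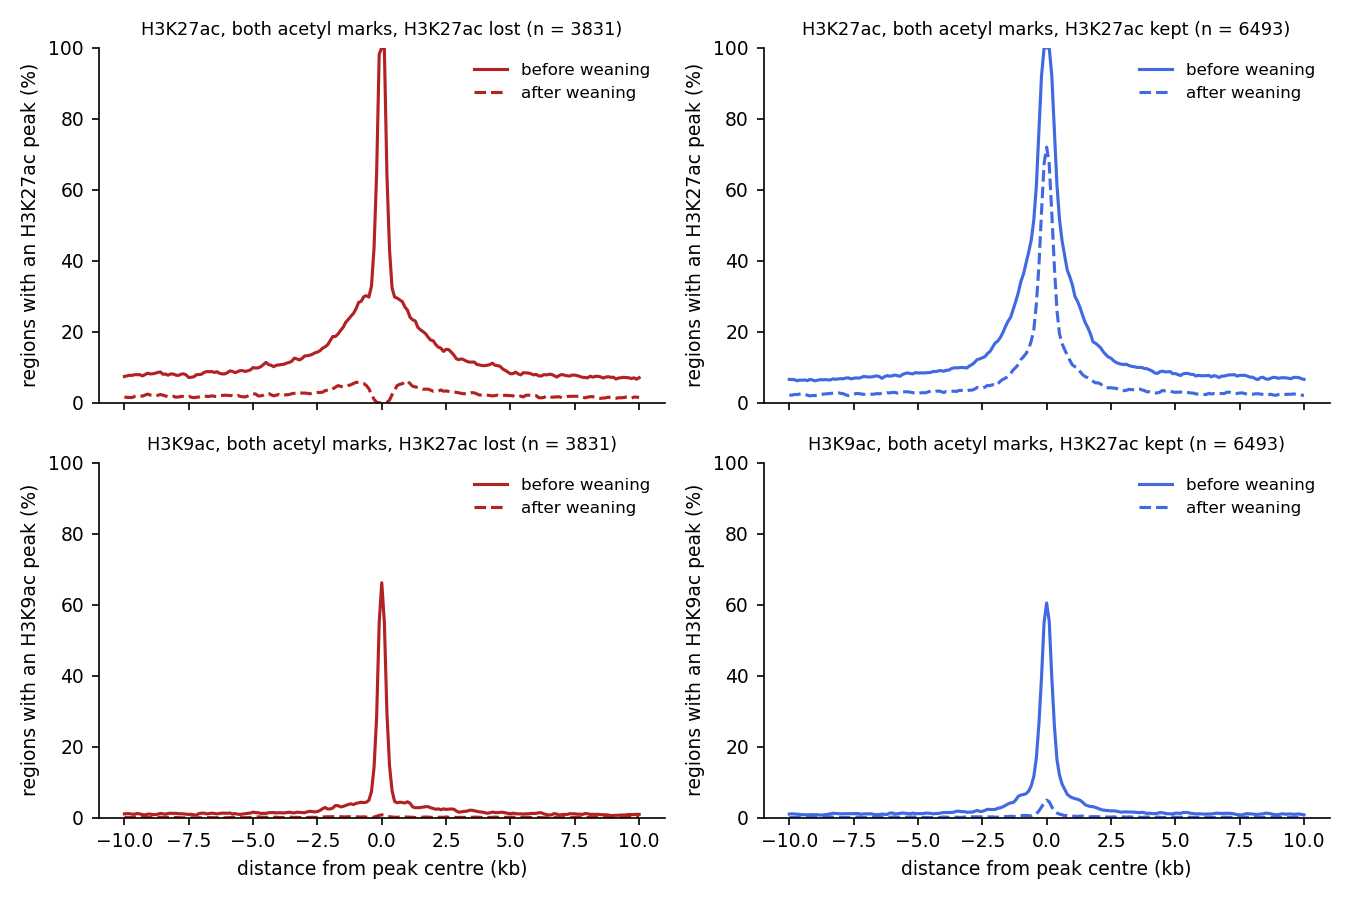
The share of regions covered by a listed peak (%) against the distance from the peak centre (kb), for H3K27ac (top) and H3K9ac (bottom) on lost (left, red) and kept (right, blue) regions, before (solid) and after (dashed) weaning. The dashed H3K27ac line of lost regions is 0 at the centre by the choice of regions and 5.98% at 1 kb, and the dashed H3K9ac line is 0.861% at the centre against 4.99% for kept regions.

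The nearest other H3K27ac peak before weaning was a median of 272 bp away from a lost region (200 bp for kept regions, 486 bp for lost peaks with H3K27ac alone and 379 bp over all H3K27ac peaks). This neighbour was itself kept for 27.3% of lost regions (interval 25.9% to 28.7%), near that over all H3K27ac peaks (22262 of 74249, interval 29.7% to 30.3%), against 43.0% for kept regions and 23.6% for lost peaks with H3K27ac alone. When peaks up to 1 kb apart were joined into stretches, 966 lost regions (25.2%) stood alone, 1606 (41.9%) lay in stretches in which every peak was lost, and 1259 (32.9%, interval 31.4% to 34.4%) shared a stretch with a kept peak. For lost peaks with H3K27ac alone these shares were 36.5%, 38.1% and 25.4%. More of them stood alone, which leaves fewer that can share a stretch with a kept peak. Of the 1606 lost regions in stretches lost throughout, 915 (57.0%) were the widest peak of their stretch, against 37.5% of such peaks with H3K27ac alone. Of the 1259 that shared a stretch with a kept peak, 277 (22.0%) were the widest, against 10.9% of lost peaks with H3K27ac alone. Lost regions were wider in general (median 501 bp against 291 bp), and the part of this in both contrasts was not tested. With peaks up to 12.5 kb apart joined, 64.2% of lost regions shared a stretch with a kept peak, against 55.5% of lost peaks with H3K27ac alone.

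Between the H3K27ac peaks after weaning that flank a lost region there was a median of 6 lost peaks, up to 51, and 309 lost regions (8.07%, interval 7.24% to 8.97%) were the only one. Over all 53552 lost H3K27ac peaks the median was also 6, and 9.61% were the only one (interval 9.37% to 9.87%), slightly more than among lost regions. These spans hold no H3K27ac peak after weaning by definition. The span with the most lost regions, picked after its values were seen, was chr5:100215533-100986546 (771.0 kb), with 8 among 45 lost peaks. A span of 54.2 kb at chr9:42062815-42117012, picked in the same way, held 7 among 20. Lost regions were 7.15% of all 53552 lost H3K27ac peaks. Other lost regions were a median of 49.3 kb away, and 411 lost regions (10.7%) had another within 1 kb.

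The other lists were distant. The median distance from a lost region to the nearest H3K9ac peak after weaning was 209.9 kb (136.3 kb for kept regions), and to RNA pol II before weaning 260.3 kb (235.4 kb). To RNA pol II after weaning it was 4563.7 kb, leaving out 236 lost regions with no such peak on the chromosome, against 4720.4 kb for kept regions and 4769.1 kb for lost peaks with H3K27ac alone. To H3K9me3 it was 969.0 kb before weaning (938.5 kb for kept regions) and 466.8 kb after weaning (462.6 kb), so lost and kept regions lay at nearly equal distances from H3K9me3 after weaning.

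Lost regions were found on all 30 chromosomes with peaks of this kind. Their share of the regions with both acetyl marks and no RNA pol II went from 28.9% on chromosome 18 to 49.3% on chromosome 27, with 48.7% on chromosome 20 and a median of 38.2%. The loss over all H3K27ac peaks on these chromosomes was 67.8%, 82.4% and 77.4%, in the same order. The X chromosome had 84.0% of all H3K27ac peaks lost but 34.5% of the regions with both marks, and chromosome 23 had 71.8% and 45.5%, so the shares did not follow each other on every chromosome. The number per Mb was lowest on the X chromosome, at 0.128 against 1.44 over all chromosomes, where 19 of 55 regions were lost and remaining H3K27ac was a median of 79.6 kb away. Of the 1306 bins of 1 Mb with a lost region 481 held 1 and 38 held 10 or more. The fullest bins were chr10:80000001-81000000 with 22 of 58 regions lost (37.9%), chr11:25000001-26000000 with 21 of 48 (43.8%), chr19:27000001-28000000 with 19 of 41 (46.3%), chr20:4000001-5000000 with 19 of 32 (59.4%), and chr28:7000001-8000000 with 17 of 51 (33.3%). The share over all 30 chromosomes was 37.1%, and the bins were ranked by number, not by share. These bins held 240, 234, 201, 177 and 177 H3K27ac peaks before weaning and 99, 112, 77, 52 and 70 after, in that order.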

How the data were processed

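The labels give target and time point for each library, 1 per group, with reads of 75 nt from a HiSeq instrument. By the labels, lane 2 held the H3K27ac and RNA pol II libraries of both times, lane 1 held the H3K9ac libraries, and H3K9me3 was on lane 2 before and lane 1 after weaning. The authors aligned filtered reads with BWA to UMD3.1.1 (UMD3.1 in the submitters' processing notes, which also name Trim Galore 0.4.1), kept unique alignments with few mismatches and called peaks with MACS2 against the input. The deposited values are peak positions, in 3 columns without any measure of peak strength. Peak number depends on read depth, antibody enrichment and the caller's threshold together, and the lists do not hold depth.

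Positions were read as 1-based with both ends included, since the lowest end minus start was 199 bp. Peaks touched where they shared at least 1 bp. Lost regions were compared with kept regions and with lost peaks carrying H3K27ac alone. Shares have 95% Wilson intervals and differences have Newcombe intervals (scipy 1.17.1, pandas 2.3.3). Regions are named by rule: the 5 widest, those with the 3 smallest and largest distances, the 3 with the most H3K9ac peaks, and those touching each list not used in the choice (the 3 widest where more than 5), and the 5 fullest bins of 1 Mb. The stretches and the mapped regions were picked after their values were seen. The lost regions and the comparisons were chosen with earlier results of these data known. Gene names and sequence motifs were not examined, because no genome or annotation of the build was used here. For the same reason the tissue label was not checked against marker genes.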

Additional observations from a re-analysis of the deposited data

How the results depend on the processing

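The number, share, width and distance of the lost regions, their share with H3K9ac after weaning and the differences from kept regions in the 4 lists not used in the choice were recomputed under other settings, and 33 of 57 recomputed values stayed within the counting interval of the reported one (within 1.5 times for the number of lost regions). This count says little about stability. The setting with only chromosomes 1 to 29 and X returned the reported values unchanged, since all lost regions lie there. The differences for RNA pol II and H3K9me3 rested on 0 to 3 lost regions per list and had little room to move. The reported number was 3831, and it was 5387 with lists extended by 1 kb. It was 2329 with a reciprocal overlap of 50%, 2349 with peaks within 1 kb merged, 2166 with only peaks at or above the median width of their list, and 2439 with equal numbers of the widest H3K27ac peaks before and after weaning, a setting added after seeing the data. Their share (37.1%) was 60.0%, 29.2%, 39.2% and 29% under the last 4 of these settings in that order, and 30.2% with lists extended by 1 kb. Their median width (501 bp) was 399, 1106, 695 and 657 bp in that order, 393 bp with lists extended by 1 kb, and 531 bp without peaks of the lowest width. Their median distance to H3K27ac after weaning (6876 bp) was 1651 bp with the reciprocal overlap, 14773 bp with extended lists, 19645 bp with merged peaks, 17608 bp with wide peaks only and 7808 bp without the 50 densest bins. The share touching H3K9ac after weaning (1.44%) was 1.07% with the reciprocal overlap. Its difference from kept regions (-9.14 percentage points) was -6.06 within width classes, -7.28 within H3K9ac width classes (added later) and -10.2 where a peak within 1 kb counted as touching. No difference for H3K9ac changed sign, and the cause of each shift was not tested.

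No paired analysis was possible because each group has 1 library. Place relative to genes and motifs were not run. Short lists, such as RNA pol II after weaning with 738 peaks, limit what an absent peak can show, and how much of the loss follows from a shorter list after weaning was not tested beyond the equal-number setting.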
